A study of Mus musculus with 8 samples.

Results

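Of the 9829 RelA peaks in the deposited list, 2020 were distal intergenic peaks. A peak was counted as distal when its centre lay on chromosomes 1 to 19, outside all protein-coding genes, more than 1 kb from every gene end, coding or not, and over 10 and up to 100 kb from the nearest protein-coding gene end. They were chosen by position alone, with no measured height or score, and made up 20.9% of the 9688 peaks on these chromosomes. RelA, also called p65, was precipitated with cross-linked chromatin from C57BL/6 mouse embryonic fibroblasts, primary cells of wild-type genotype that had been starved of serum overnight and then given TNF at 10 ng/ml. There were 2 ChIP libraries at each of 0, 0.5 and 3 h of TNF, and 2 input DNA libraries. All 8 libraries stand behind 1 list of start and end positions with no value per library, so the times could not be compared and no replicate error could be computed. The sequencing depth was unknown. No expression was measured, so the fibroblast identity of the culture could not be checked against markers.

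NF-kB is a family of dimeric transcription factors held in the cytoplasm by I-kappa-B proteins. TNF leads to the breakdown of these inhibitors, after which RelA enters the nucleus and binds kappaB sites at promoters and at enhancers. Enhancers can lie far from the genes they act on and need not act on the nearest one, so a nearest gene is given below as a position and not as a target. Fibroblast enhancers are known to be rich in sites for AP-1, the factor made of Fos and Jun proteins.

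Sequence was in hand for 5 of the 2020 distal peaks, those that overlapped one of the 32851 RefSeq start-site windows used (GRCm38.p6, 250 bases before to 50 bases from the start site onward). All 5 overlapped a start window inside a long noncoding RNA gene. Each stretch was searched on both strands for the consensus kappaB motif (3 G, a purine, any base, A or T, 2 pyrimidines, 2 C) and for the AP-1 motif TGANTCA. The kappaB motif occurred in 4.51% of all 32851 windows and the AP-1 motif in 7.81%. The following 2 stretches are shown because each held a match, which is in capitals. The first is the part of a 417 bp peak, chr7:67805441-67805857, that overlaps a start window of Gm34350 (plus strand, chr7:67805560-67805857). This peak was centred 45.9 kb from the intermediate filament gene Synm, and its stretch held 1 kappaB match and no AP-1 match.
Gm34350: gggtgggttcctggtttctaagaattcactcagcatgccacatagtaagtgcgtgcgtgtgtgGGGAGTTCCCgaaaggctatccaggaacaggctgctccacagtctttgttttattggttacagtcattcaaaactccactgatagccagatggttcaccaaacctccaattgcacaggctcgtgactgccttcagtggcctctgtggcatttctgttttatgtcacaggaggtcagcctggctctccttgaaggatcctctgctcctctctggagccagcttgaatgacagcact
The next stretch is the part of a 968 bp peak, chr7:98415423-98416390, that overlaps a start window of Gm44507 (minus strand, chr7:98415566-98415865). This peak was centred 24.5 kb from the guanylate cyclase gene Gucy2d, and its stretch held 1 AP-1 match and no kappaB match.
Gm44507: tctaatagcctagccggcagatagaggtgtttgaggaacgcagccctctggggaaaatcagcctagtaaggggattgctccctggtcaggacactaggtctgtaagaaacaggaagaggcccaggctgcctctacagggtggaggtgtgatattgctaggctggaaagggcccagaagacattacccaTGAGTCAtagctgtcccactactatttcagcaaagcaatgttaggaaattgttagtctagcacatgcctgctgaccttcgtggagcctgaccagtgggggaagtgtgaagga
The stretches of the other 3 peaks, at Gm12153 (159 bases of an 886 bp peak), Gm36894 and Gm30234, held neither motif. These stretches cover part of each peak and were available through the annotation of start sites, so they are not a sample of the distal peaks.

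The start sites of the nearest genes could be read for 1144 of 1487 genes. Of the start windows of protein-coding genes on chromosomes 1 to 19, 1090 were overlapped by a RelA peak, and 257 of these held the kappaB motif (23.6%, Wilson 95% interval 21.2 to 26.2%). Of the 18995 windows with no peak, 3.86% held it. Where the gene was also nearest to a distal peak, 29 of 116 peak-bearing windows held the motif (25%, interval 18.01 to 33.6%). Genes nearest to a distal peak therefore had the motif at a share inside the interval for all peak-bearing windows. The sites below belong to genes of the NF-kB, TNF receptor, chemokine and cytokine lists that had both a distal peak and a RelA peak over a start site with a match. They show the kappaB letters under the promoter peak that accompanies the distal one. Each is given on the strand of the gene with 10 bases to either side and the match in capitals. As printed, the Il6 and Cxcl1 sites read as the motif. The Tnfaip3, Nfkbia, Ccl20, Map3k7 and Csf1 sites match it on the opposite strand. Distances to the start site are counted from the first base of the match.
Tnfaip3, chr10:19015403-19015432, 12 bases before the start site: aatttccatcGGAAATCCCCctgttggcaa
Nfkbia, chr12:55492657-55492686, 29 bases before: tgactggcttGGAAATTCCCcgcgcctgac
Il6, chr5:30013060-30013089, 44 bases before: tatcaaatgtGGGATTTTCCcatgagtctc
Cxcl1, chr5:90891164-90891193, 71 bases before: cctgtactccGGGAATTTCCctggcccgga
Ccl20, chr1:83116676-83116705, 80 bases before: aatcaatgggGGAAAACCCCgggtgagaac
Map3k7, chr4:31964005-31964034, 92 bases before: ccccgggtcaGGAAATTCCCcgctcgggtc
Csf1, chr3:107760604-107760633, 154 bases before: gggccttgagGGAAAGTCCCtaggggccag
Tnfaip3 held a further match 125 bases before its start site, and Cxcl1 held an overlapping one on the other strand. Map3k14, whose start window also lay under a peak, held none.

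Distal peaks were spread over the whole distance range at a density close to that of the genome. Their median distance to the nearest protein-coding gene end was 33.8 kb, with quartiles of 19.9 and 58.7 kb. There were 714 peaks from 10 to 25 kb, 676 from 25 to 50 kb and 630 from 50 to 100 kb. The sequence that met the same distance rule, called distal sequence below, came to 500 Mb, which gave 4.04 distal peaks per Mb (exact Poisson 95% interval 3.87 to 4.22). All peaks between the first and last gene of each chromosome gave 4.03 per Mb. Density was 4.22 per Mb (3.91 to 4.54) from 10 to 25 kb, 4.34 (4.02 to 4.68) from 25 to 50 kb and 3.60 (3.33 to 3.89) from 50 to 100 kb. The interval of the outer range lay below those of both inner ranges. In steps of 10 kb, the highest density was 4.70 per Mb (4.25 to 5.19) from 20 to 30 kb and the lowest was 3.25 (2.74 to 3.83) from 50 to 60 kb. Gene-flanking peaks, 1 to 10 kb from a gene end, came to 3.86 per Mb (3.58 to 4.15), and from 100 to 200 kb the density was 3.27 (3.02 to 3.54). These intervals cover counting error in 1 list only.

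**Figure D1:**
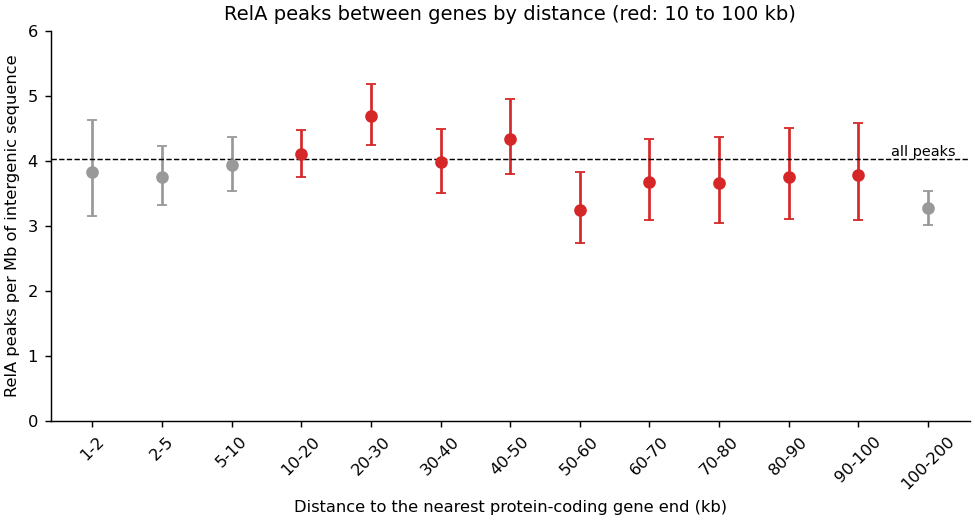
RelA peaks per Mb of intergenic sequence (y axis) against distance in kb to the nearest protein-coding gene end (x axis); points are all peaks on chromosomes 1 to 19 in each distance range, bars are exact Poisson 95% intervals, red marks the distal range and the dashed line marks all peaks over the genome (4.03 per Mb). The red points run from 3.25 to 4.70 per Mb, with the highest at 20 to 30 kb.

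The bounds at 10 and 100 kb cut through a continuous range. The innermost distal peaks were centred 10.0 kb from St7, Ubl4b and the growth factor gene Csf2, while a 1311 bp peak 9.996 kb from the fibulin gene Fbln2 fell just outside. At the outer bound, peaks 99.9 kb from Nrep and 99.5 kb from Emp1 were included, and a 1181 bp peak 100.1 kb from Cdc42ep3 was not.

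Distal peaks lay on either side of their nearest gene. For 1556 of the 2020 peaks the strand of the nearest gene was known, and 860 of these (55.3%, Wilson 95% interval 52.8 to 57.7%) lay upstream, on the side of the start of the gene. Of the distal sequence beside genes of known strand, 54.3% was upstream, which the interval includes. Density was 4.08 per Mb (3.81 to 4.36) upstream and 3.92 per Mb (3.63 to 4.22) downstream. The gene on the other side lay at a median of 115.2 kb, beside 33.8 kb to the nearest gene. For 904 distal peaks (44.8%) both flanking protein-coding genes lay within 100 kb.

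Distal peaks were of ordinary width. Their widths ran from 331 to 1837 bp around a median of 695 bp (quartiles 590 and 814 bp). The median of all other peaks on these chromosomes was 685 bp. At or above the overall median of 687 bp were 1044 of 2020 distal peaks (51.7%) and 3819 of 7668 others (49.8%), an odds ratio of 1.08 (two-sided Fisher's exact test, 95% interval 0.977 to 1.19, adjusted p = 0.134 over 6 tests). Gene-flanking peaks had a median of 667 bp, and 44.9% of them reached 687 bp, fewer than among distal peaks (Fisher's exact test, odds ratio 1.31, interval 1.11 to 1.56, adjusted p = 0.00329). Of gene-desert peaks, those beyond 100 kb, 47.9% did (odds ratio 1.16, interval 1.02 to 1.33, adjusted p = 0.0362 by Fisher's exact test). With the lower bound at 20 kb, the peaks at 10 to 20 kb also joined the gene-flanking class. The difference from gene-flanking peaks then did not pass (odds ratio 1.12, adjusted p = 0.175 by Fisher's exact test). The difference from gene-desert peaks did not pass under 4 of the alternatives. Peaks at protein-coding gene ends were the widest class, with a median of 766 bp. A test over peaks of 1 list covers counting error and treats neighbouring peaks as independent.

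**Figure D2:**
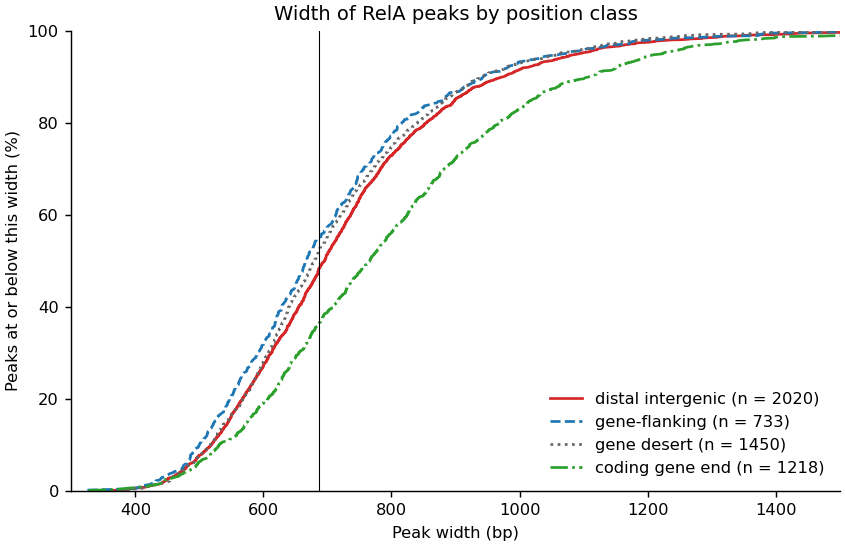
Share of peaks at or below each width (y axis, %) against peak width in bp (x axis) for 4 position classes; the vertical line is the median of all peaks on chromosomes 1 to 19, 687 bp. The distal curve lies between those of gene-flanking and protein-coding gene-end peaks at the median line, with medians of 695, 667 and 766 bp.

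Distal peaks had close neighbours more often than peaks in gene deserts and less often than gene-flanking peaks. Another RelA peak of any class was centred within 10 kb of 366 of 2020 distal peaks (18.1%), 1165 of 7668 others (15.2%), 171 of 733 gene-flanking peaks (23.3%) and 165 of 1450 gene-desert peaks (11.4%). The odds ratio was 1.24 (Fisher's exact test, adjusted p = 0.00329, 95% interval 1.09 to 1.41) against all others and 1.72 (1.41 to 2.10, adjusted p = 2.73e-07) against gene-desert peaks. Against gene-flanking peaks it was 0.727 (Fisher's exact test, 0.592 to 0.893, adjusted p = 0.00411). With neighbours sought within 5 kb, the odds ratio against all others was 1.06 (adjusted p = 0.572 by the exact test). The lower share against gene-flanking peaks did not pass with neighbours sought within 20 kb (0.902, adjusted p = 0.262 by the exact test). Nor did it pass within 50 kb (0.964, adjusted p = 0.691 by the exact test). The distance rule itself shapes these comparisons. A distal centre lies over 10 kb from every protein-coding gene end, so no neighbour within 10 kb can lie inside such a gene. Gene-flanking peaks always have a gene end within that reach. The shares within 10 kb therefore do not compare spacing alone. Where peaks neighbour each other, each is counted, and 303 of the distal peaks lay in 146 runs of peaks joined within 10 kb. The counts are therefore not independent, and the intervals and p-values of these tests understate the uncertainty. The median distance of a distal peak to the nearest other peak was 35.1 kb.

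Joining distal peaks whose centres followed each other within 10 kb left 1717 single peaks and 146 runs, of which 138 held 2 peaks, 5 held 3 and 3 held 4. The 3 runs of 4 lay beside Lif, beside Ccl2, and between Psma6 and Nfkbia. The first covered 17.9 kb on chromosome 11, from 4291536 to 4309444, between Lif, which encodes the cytokine leukemia inhibitory factor, and Hormad2. Its peaks were 531, 559, 1171 and 1422 bp wide and stood 19.3, 20.3, 27.3 and 36.2 kb downstream of Lif. A run of 13.3 kb on chromosome 11, from 82006620 to 82019946, lay between the ion channel gene Asic2 (38.2 kb away) and Ccl2, the gene for a monocyte-attracting chemokine (15.6 kb). Its 4 peaks, 669, 874, 668 and 896 bp wide, were centred 28.6, 23.7, 19.2 and 16.1 kb from Ccl2. Another run of 4, on chromosome 12 from 55433806 to 55447367, lay 15.4 kb from the proteasome gene Psma6 and 42.0 kb from Nfkbia, the gene for I-kappa-B alpha. By distance its peaks belonged to Psma6, at 15.6, 20.3, 24.9 and 28.5 kb. The 2 runs of 3 with the most summed peak width lay between the homeobox gene Six2 and Srbd1, at 28.8 to 43.3 kb from Srbd1, and between Slc44a3 and 4930432M17Rik, at 44.9 to 56.9 kb from Slc44a3.

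The 2020 distal peaks had 1487 nearest protein-coding genes, which were 7.23% of the 20558 on chromosomes 1 to 19. Of these genes, 1106 had 1 distal peak, 381 had 2 or more and 32 had 4 or more. A RelA peak within 1 kb of a gene end was found at 164 of the 1487 nearest genes (11.03%, Wilson 95% interval 9.54 to 12.7%), beside 6.58% of all protein-coding genes. It was found at 580 of 10338 genes (5.61%, interval 5.18 to 6.07%) that had distal sequence but no distal peak. Nearest genes had more distal sequence around them, a median of 80.4 kb against 18.1 kb. Among genes with 50 kb or more of it, the shares were 10.4% (102 of 979, interval 8.66 to 12.5%) with a distal peak and 5.82% (163 of 2803, interval 5.01 to 6.74%) without one, at median lengths of 91.6 and 89.2 kb. Most distal peaks, then, had a nearest gene with no peak at its ends, and 224 of 2020 (11.1%) had one.

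The genes with the most distal peaks had varied roles, and none was in an NF-kB, cytokine or chemokine list. Tspan8, a tetraspanin membrane protein gene, had 6, at 24.7, 28.7 and 97.5 kb upstream and 47.4, 58.1 and 76.8 kb downstream, the peak at 47.4 kb being 1413 bp wide. Arsj, a gene of the arylsulfatase family, also had 6, of which 4 lay upstream from 37.5 to 87.5 kb. With 5 peaks each followed Sp3, a zinc finger transcription factor gene (15.3 to 98.1 kb), Rnd3, which encodes a small GTPase that acts on the actin cytoskeleton (28.8 to 89.7 kb), and Tle3, a transcriptional corepressor gene (29.3 to 77.1 kb). Zeb1, whose product represses epithelial genes, had 5 from 43.8 to 82.5 kb and also carried a RelA peak within 1 kb of an end. None of the other 9 genes named here had such an end peak, which 11.03% of all nearest genes had. Tomm20, a mitochondrial import receptor gene, had 5, all downstream from 35.4 to 98.0 kb and all inside the noncoding RNA gene Gm31718. The zinc finger gene Zfp438 had 5 (34.8 to 97.0 kb), the lysophosphatidic acid receptor gene Lpar1 had 5 (11.8 to 93.3 kb), and Cd47, whose surface protein protects cells from being engulfed, had 5, all downstream (11.4 to 98.2 kb). Between 84.0 and 174.8 kb of distal sequence was nearest to each of these 10 genes.

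**Figure D3:**
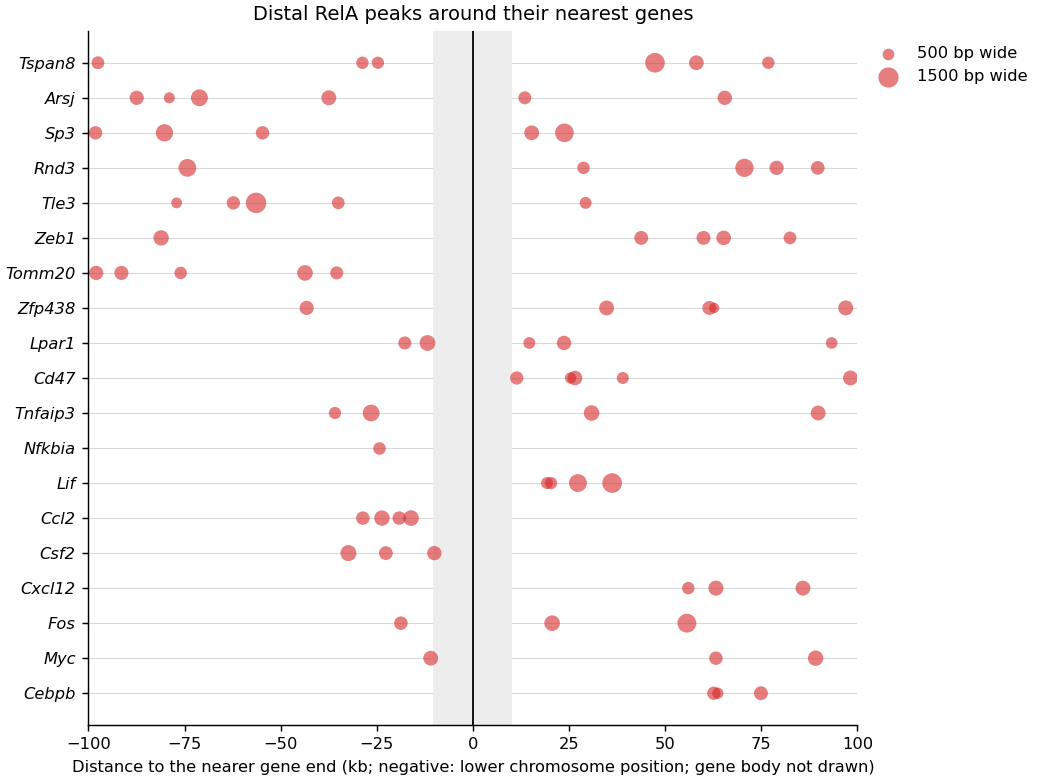
Positions of distal RelA peaks (points, area proportional to peak width) around the 10 genes with the most distal peaks and 9 listed genes. The 9 come from the NF-kB, cytokine, chemokine, early response and mesenchymal regulator lists. The x axis is the distance in kb to the nearer gene end, negative toward lower chromosome positions. The grey band is the 10 kb on each side that the rule leaves out. The Lif and Ccl2 peaks sit together within 36.2 and 28.6 kb of the gene, while those of Tspan8 and Arsj are scattered over both sides. Room for scatter differed, since 22.6 and 23.6 kb of distal sequence was nearest to Lif and Ccl2. For Tspan8 and Arsj it was 162.1 and 152.3 kb.

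Genes of 23 lists were then followed. Of 476 matched genes, 127 (26.7%) were nearest to a distal peak, beside 7.23% of all protein-coding genes. The 7.23% also counts genes without distal sequence, which could not be nearest to a distal peak. Of the 11825 genes with some, 1487 were nearest to one. The lists were chosen with earlier results of these data known, so the difference is not independent evidence. Listed genes differ in how much distal sequence surrounds them, so each list is also given as peaks per Mb of its own distal sequence, to be read beside 4.04 per Mb for all. These are descriptions and were not tested. Counts of listed genes that had both a distal peak and a peak within 1 kb of an end are to be read beside 11.03% of all nearest genes. Among NF-kB inhibitors and feedback genes, 4 of 14 had a distal peak, and the list had 13.5 peaks per Mb (interval 5.42 to 27.8). Tnfaip3, which encodes the ubiquitin-editing enzyme A20, supplied 4 of its 7 peaks, and without it the density was 7.96. The Tnfaip3 peaks on chromosome 10 lay at 18964769 to 18965314 and 18973938 to 18974967, 35.9 and 26.5 kb downstream, and at 19045836 to 19046727 and 19104819 to 19105624, 30.9 and 89.8 kb upstream. Nfkbia had 1 distal peak of its own, 581 bp wide and 24.3 kb downstream (chromosome 12, 55464791 to 55465371), beside the run assigned to Psma6. The nuclear I-kappa-B gene Nfkbiz had 1 at 80.2 kb and the deubiquitinase gene Otud7b 1 at 16.5 kb. Tnfaip3, Nfkbia and Nfkbiz also had a RelA peak within 1 kb of an end, and Otud7b did not. Most genes of this list without a distal peak had such an end peak too.

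Among 10 genes for NF-kB proteins and their kinases, 2 (20%) had a distal peak, beside 7.23% of all protein-coding genes. The list had 13.5 peaks per Mb (1.63 to 48.6), or 7.90 without Map3k14. The 2 genes were Map3k14, the kinase of the noncanonical pathway, 25.1 kb upstream (969 bp wide), and Nfkb1, the gene for p50 and its precursor, at 37.8 kb (711 bp). Of 19 TNF receptor signalling genes, 3 had one, and the list came to 7.90 peaks per Mb (2.15 to 20.2), or 4.51 without Map3k8. The kinase gene Map3k8 had 2, the nearer at 30.9 kb, the TAK1 kinase gene Map3k7 had 1 at 32.3 kb, and the adaptor kinase gene Ripk2 had 1 at 35.3 kb. All 5 of these genes also had a RelA peak within 1 kb of an end. Most genes of the NF-kB protein and kinase list without a distal peak had one as well. Most TNF receptor signalling genes without a distal peak had none.

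Chemokine genes had the highest density of the lists, with 16 distal peaks in 0.388 Mb, or 41.3 per Mb (23.6 to 67.0), and 33.0 without Ccl2. Distal peaks were nearest to 8 of 19 chemokine genes (42.1%), of which 5 also had a peak within 1 kb of an end. After Ccl2 with 4, Cxcl12, which guides stem cells and lymphocytes, had 3 (577, 830 and 819 bp wide), at 56.0, 63.2 and 85.9 kb downstream, and Ccl5, which attracts T cells, had 2, the nearer at 13.7 kb. The neutrophil chemokine gene Cxcl1, whose promoter site is printed above, had a 1054 bp peak 14.8 kb upstream. Among cytokines, 6 of 23 genes had a distal peak, with 13.3 per Mb (6.85 to 23.2), or 9.06 without Lif. After Lif with 4, Csf2, which encodes granulocyte-macrophage colony-stimulating factor, had 3 downstream peaks of 753, 700 and 946 bp at 10.0, 22.6 and 32.4 kb. Csf1, the macrophage growth factor gene, had 2 upstream, of 1219 and 898 bp, at 15.7 and 33.1 kb. Il6, which encodes the fever-inducing cytokine interleukin-6, had 1 upstream peak at 15.4 kb, of 663 bp.

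Early response and surface genes also had distal peaks. Of 20 immediate early genes, 8 did (40.0%), with 16 peaks and 15.4 per Mb (8.81 to 25.03), or 13.5 without Fos. Fos had 1 upstream at 18.7 kb and 2 downstream at 20.6 and 55.7 kb, of 676, 898 and 1308 bp. Myc, the growth-promoting transcription factor gene, had 3, at 10.97, 63.2 and 89.1 kb. Jun had 2 upstream, at 30.6 and 48.8 kb. These 3 genes had no RelA peak within 1 kb of an end, whereas 3 of the 8, the zinc finger gene Klf10, the related Klf6 and the antiproliferative gene Btg2 (named after their values were seen), had one. Within 5 kb of an end, Myc did have a RelA peak, and Fos and Jun did not. Adhesion and surface receptor genes had 15.1 per Mb (6.91 to 28.7), or 8.22 without Cd47. Cd44, the hyaluronan receptor gene, had 2, the nearer at 46.3 kb, and the pattern receptor gene Tlr2 had 1 at 21.1 kb. Of 14 cell survival genes, 2 had distal peaks, the growth arrest gene Gadd45a with 2 (nearest at 32.0 kb) and the ferritin gene Fth1 with 1 (26.0 kb). That list came to 10.4 per Mb (2.15 to 30.4), or 4.90 without Gadd45a.

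**Figure D4:**
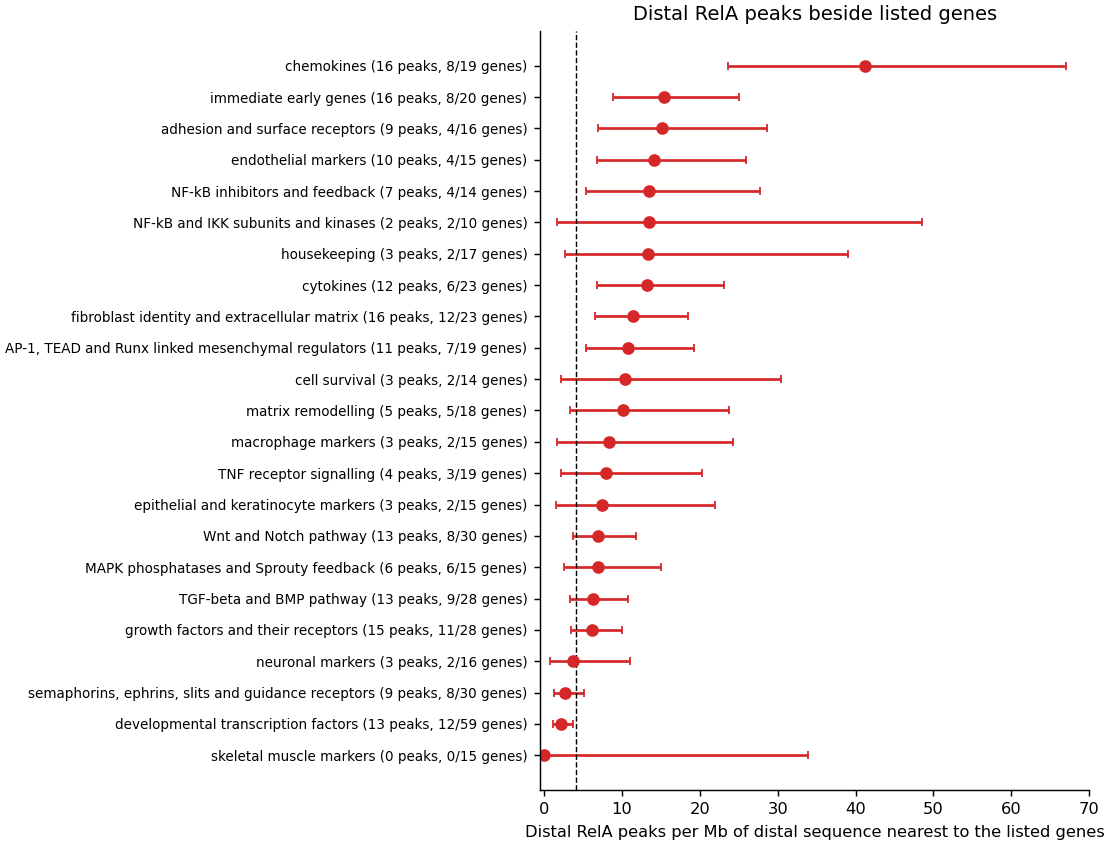
Distal RelA peaks per Mb of distal sequence nearest to the genes of each list (x axis), with exact Poisson 95% intervals; each row gives the number of distal peaks and of genes with at least 1, and the dashed line is the value for all genes, 4.04 per Mb. Chemokines stand highest at 41.3 per Mb, and developmental transcription factors lie below the line at 2.16.

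Some genes of the fibroblast list were nearest to a distal peak and others were not. Of 23 fibroblast identity and extracellular matrix genes, 12 were nearest to one (52.2%, Wilson 95% interval 33.0 to 70.8%), the highest share of the lists. These genes also had much distal sequence around them, a median of 65.1 kb beside 9.20 kb for chemokine genes. Per Mb the list had 11.4 distal peaks (6.51 to 18.5), and 8 lists had more, among them the endothelial and housekeeping lists. Without Col5a1 it had 10.4. The collagen genes Col5a1 (nearest at 27.7 kb) and Col6a1 (26.7 kb) and the matrix protein gene Postn (43.7 kb) had 2 each. Of these 12 genes, 2 also had a peak within 1 kb of an end, among them Col5a1. The mesenchymal regulator list, with AP-1 partners and TEAD and Runx factors, had 7 of 19 genes and 10.8 per Mb (5.37 to 19.2), or 8.85 without Ets2. In it, Ets2 (nearest at 22.2 kb) and Cebpb had 3 each, and Tead1, a nuclear partner of YAP, had 1 at 16.1 kb. Cebpb encodes a transcription factor of inflammation that can act with NF-kB, and its peaks lay 62.7, 63.7 and 74.9 kb downstream. Of 18 matrix remodelling genes, 5 had 1 distal peak each (10.2 per Mb, 3.31 to 23.8), including the protease genes Ctsl (18.03 kb), Mmp13 (10.6 kb) and Adamts1 (28.0 kb).

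Signalling and developmental lists lay closer to the value for all genes. Growth factors and their receptors had 6.10 per Mb (3.41 to 10.1), with 2 peaks each at Igf1, the neuregulin gene Nrg1 and the receptor gene Igf1r. TGF-beta and BMP pathway genes had 6.29 (3.35 to 10.8), with 2 each at the activin antagonist gene Fst, the inhibitory Smad6 and Bmp2. Wnt and Notch pathway genes had 6.93 (3.69 to 11.9), with 3 at the Wnt antagonist gene Dkk2 and 2 each at Wnt7b and the Notch target gene Hes1. MAPK phosphatase and Sprouty genes had 6.90 (2.53 to 15.0), with 1 each at Dusp5, Spry2 and Dusp1. Axon guidance genes had 2.70 (1.24 to 5.13), with 2 at the semaphorin receptor gene Nrp2 and 1 each at Slit2 and Plxna2. Developmental transcription factor genes are flanked by long intergenic stretches and had 6.01 Mb of distal sequence, but 13 distal peaks, which is 2.16 per Mb (1.15 to 3.70). Their interval lay below 4.04, and the only gene of this list with 2 peaks was Tbx18, while Gata3 and Sox11 had 1 each. None of its 12 genes with a distal peak had one within 1 kb of an end. Among all nearest genes the share was 11.03%, so few were to be looked for among 12.

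Lists of housekeeping genes and of other cell types were followed in the same way. Endothelial marker genes had 10 distal peaks at 4 of 15 genes, 14.1 per Mb (6.77 to 26.0), close to the 13.5 of the NF-kB inhibitor list. They were nearest to the VEGF receptor gene Flt1 (3 peaks, nearest at 21.8 kb), Emcn (3, 10.2 kb), the cadherin gene Cdh5 (2, 50.3 kb) and Kdr (2, 10.1 kb, named after its value was seen). None of these 4 genes had a peak within 1 kb of an end, a count too small to set against the 11.03% of all nearest genes. Without Flt1 the endothelial list came to 10.6 per Mb. Whether endothelial cells were present in the cultures was not tested. Housekeeping genes had 3 peaks, 2 near Ywhaz and 1 near Eef1a1 (13.3 per Mb, 2.75 to 39.0), or 11.07 per Mb without Ywhaz. Macrophage markers had 3, 2 near the leukocyte phosphatase gene Ptprc and 1 near Cd163 (8.30 per Mb, 1.71 to 24.3), or 4.17 per Mb without Ptprc. Epithelial markers had 3, 2 near Trp63 and 1 near Cldn4 (7.49, 1.55 to 21.9), or 3.47 per Mb without Trp63. Neuronal markers had 3, 2 near Stmn2 and 1 near Snap25 (3.76, 0.776 to 10.99), or 1.48 per Mb without Stmn2. Skeletal muscle markers had none in 0.109 Mb, an interval of 0 to 33.9 per Mb.

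The 10 widest distal peaks had 10 different nearest genes. The widest, 1837 bp, was 63.3 kb downstream of Igf1 (chromosome 10, 87999478 to 88001314). A 1763 bp peak stood 82.1 kb upstream of Cdkn2b, the gene for the cell cycle inhibitor p15 (chromosome 4, 89392210 to 89393972), inside the noncoding RNA gene Gm12610. Peaks of 1576, 1535, 1518 and 1501 bp were nearest to Serp2 (73.8 kb), Tle3 (56.4 kb), the TGF-beta co-receptor gene Tgfbr3 (18.6 kb) and Llph (40.9 kb). The remaining 4 of the 10 widest were nearest to Zfp958 (1478 bp, 45.5 kb), the choline transporter gene Slc44a1 (1470 bp, 42.9 kb), Mpped2 (1440 bp, 28.5 kb) and Ch25h (1438 bp, 38.1 kb), which encodes the enzyme that makes the antiviral lipid 25-hydroxycholesterol. For 9 of the 10, the nearest other peak was over 10 kb away, and the exception was the Tle3 peak at 5902 bp.

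Noncoding RNA genes held some of the distal peaks. The rule kept peaks more than 1 kb from their ends but not outside their bodies, and 379 distal peaks (18.8%, Wilson 95% interval 17.1 to 20.5%) lay inside a noncoding gene, 358 of them in a long noncoding RNA gene. Of the distal sequence, 15.4% lay inside noncoding genes, so the density was 4.92 per Mb inside and 3.88 per Mb outside. Gm46414 on chromosome 13 held the most, 6, of which 4 were nearest to the sphingosine phosphate receptor gene S1pr3, 62.5 to 93.8 kb upstream of it. Several of the peaks described above lay in such genes. Gm11958 held 3 of the 4 Lif peaks, Gm12223 held all 3 Csf2 peaks and 1 nearest to the collagen-modifying enzyme gene P4ha2, and Gm40121 held both Csf1 peaks. The 2 farther Myc peaks lay inside Pvt1, and both Jun peaks inside Junos.

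Near microRNA genes, 11 distal peaks were centred within 10 kb, and none was inside one. Mature sequences are shown for 3 of these genes with established roles, with the seed (bases 2 to 8) in capitals. Mir30a, a widely expressed microRNA gene on chromosome 1, had a 541 bp peak 3.93 kb away. Mir34a, a p53 target that restrains the cell cycle, had a 993 bp peak 8.26 kb away on chromosome 4. Mir365-2 had a 780 bp peak 3.21 kb away on chromosome 11. Their seeds differ from each other.
mmu-miR-30a-5p: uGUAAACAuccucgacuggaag
mmu-miR-34a-5p: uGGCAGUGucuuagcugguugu
mmu-miR-365-3p: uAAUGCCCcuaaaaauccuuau

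By chromosome, the number of distal peaks ran from 47 on chromosome 19 to 175 on chromosome 1, and density from 2.14 to 6.11 per Mb of distal sequence, with a median of 4.09. Chromosome 11 had the highest density (130 peaks, 6.11 per Mb, exact Poisson 95% interval 5.11 to 7.26). It carries Lif, Ccl2, Ccl5 and Csf2, with 4, 4, 2 and 3 of these peaks. Distal peaks were 20.5% of all 635 peaks on chromosome 11, close to the median share of 20.7% over the 19 chromosomes. Chromosome 14 had the lowest (49 peaks, 2.14 per Mb, 1.58 to 2.82), and distal peaks were also the smallest share of its peaks, 14.1%, beside a median of 20.7% over the 19 chromosomes. Chromosome 15 (5.35 per Mb, 4.38 to 6.48) also had an interval above 4.04 per Mb, and chromosome 7 (2.90 per Mb, 2.36 to 3.53) had one below it, while those of the other 15 chromosomes included this value. Median width varied little, from 664 bp on chromosome 6 to 720 bp on chromosome 15.

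**Figure D5:**
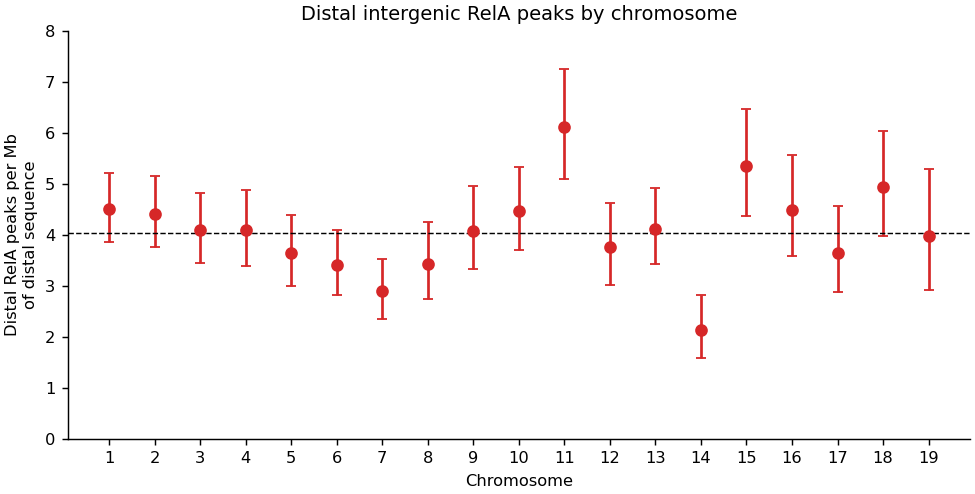
Distal RelA peaks per Mb of distal sequence (y axis) on chromosomes 1 to 19 (x axis), with exact Poisson 95% intervals; the dashed line is the value over all 19 chromosomes, 4.04 per Mb. Chromosome 11 lies highest at 6.11 and chromosome 14 lowest at 2.14.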

How the data were processed

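RelA ChIP-seq was made from TNF-treated primary mouse embryonic fibroblasts, with 2 libraries per group. The deposited values are the start and end in base pairs of each of 9829 peaks in 3 columns without a header, with no column per sample. The submitters' processing notes list MACS2, deepTools, SAMtools, Picard 1.13, Bowtie2 2.3 and cutadapt 1.9.1, and the build mm10. Not given in the sources used here were the role of each tool, the threshold that a peak had to pass, how input DNA entered, and whether libraries were pooled. The labels' protocols state cross-linking with both disuccinimidyl glutarate and formaldehyde, which can retain proteins held to DNA through other proteins, and shearing to 250 to 1000 bp, so a peak is wider than a binding site. Wider peaks can also follow from deeper libraries, and depth was unknown.

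Starts were moved to positions counted from 1. Genes came from the RefSeq table of GRCm38.p6, the assembly named mm10, with 49209 genes on chromosomes 1 to 19 and X (21521 protein-coding). Another 345 entries on patch or unplaced scaffolds were dropped. Distances run from the peak centre to the nearer gene end. Strand came from the RefSeq start-site windows (16457 of 20558 protein-coding genes). Distal sequence was computed to the base by the same rule and given to the nearest gene. No part of it was removed as unmappable. Position code was checked on a made-up chromosome with known answers. Shares of peaks were compared by two-sided Fisher's exact tests, adjusted by Benjamini-Hochberg over 6 tests, at a threshold of 0.05. The intervals of odds ratios are Wald intervals on the log scale and do not come from the exact test. Python 3.11.15, SciPy 1.17.1 and statsmodels 0.14.6 were used.

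The members and gene lists were chosen with earlier results of these data known. Of 485 listed symbols, 476 matched. Named genes were the 10 with the most distal peaks, those nearest to the 10 widest, all of the NF-kB and TNF receptor lists with a distal peak, up to 3 per other list (ties by summed width), and those beside the 5 fullest runs. Genes at the distance bounds, with printed sequences or at noncoding RNA genes were named outside this rule, with their values seen. The planned motif comparisons between peak classes were not run, since no genome sequence was used here. Alternatives were other distance bounds, gene-end rules, merging of peaks, width and neighbour thresholds, both flanking genes, and wider peaks only.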

Additional observations from a re-analysis of the deposited data

Results flagged for a closer look

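Chromosome X lies outside the distance classes above. On it, 26 of 135 peaks met the same distal rule, or 0.516 per Mb of distal sequence (exact Poisson 95% interval 0.337 to 0.756), with a median width of 641.5 bp. A further 6 peaks lay on contigs without a chromosome position, where no gene distance was taken. Both were listed because they are signal in data that the comparisons did not use.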

How the results depend on the processing

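The number of distal peaks stayed between 1390 and 2657 under 8 of 9 alternatives and was 1044 with the wider peaks alone, by construction. For width against all other peaks, a threshold at the upper quartile turned the odds ratio to 0.966 (Fisher's exact test, adjusted p = 0.564). Width against gene-flanking peaks did not pass with a lower bound of 20 kb (1.12). Width against gene-desert peaks did not pass with a lower bound of 20 kb (1.14), an upper bound of 50 kb (1.11), protein-coding gene ends only (1.14) or the upper quartile (1.10). For neighbours, the odds ratio against all others did not pass within 5 kb (1.06), and that against gene-flanking peaks did not pass with a lower bound of 20 kb (0.817) or within 20 kb (0.902) or 50 kb (0.964). The bounds also set the classes compared. A lower bound of 20 kb moved the 509 peaks at 10 to 20 kb, of median width 700 bp, into the gene-flanking class. An upper bound of 50 kb moved the 630 peaks at 50 to 100 kb into the gene-desert class. Those comparisons were thus not made against the same peaks, and why calls were lost was not tested. The share of nearest genes with a peak at an end was 21.1% within 5 kb. Listed genes nearest to a distal peak numbered 82 with wider peaks alone. Runs of 2 or more numbered 60 when joined within 5 kb and 256 within 20 kb, and 379 peaks lay inside noncoding genes against 819 inside or within 10 kb. All other alternatives that were run kept direction and call, 50 of 66. Leaving out chromosome 11 or 14 and keeping genes with 50 kb or more of distal sequence were chosen after seeing the data, and they changed no call. By list, taking both flanking genes moved none of 23 counts by over 1.5 times, and the wider peaks alone moved 13. The motif alternatives were not run. No paired analysis was possible because the list has no values per sample, and for the same reason no replicate could be left out. Depth was unknown, so a missing peak does not show that RelA was not bound.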
